A study of Mus musculus with 6 samples.

Results

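The 7 mouse Schlafen genes Slfn1, Slfn2, Slfn3, Slfn4, Slfn5, Slfn8 and Slfn9 were examined in iWAT, the white fat depot of the groin, from Zip13-KO and WT mice. They were taken as a family and were selected on the Zip13-KO to WT difference in these same arrays, so that difference is given here as a description and no test of it is drawn. Every probe whose accession is a RefSeq transcript of 1 of the 7 genes was used. This gave 9 probes, since Slfn8 and Slfn9 have 2 probes each and the other genes have 1, out of 28331 probes that carry the names of 21368 genes. There were 6 arrays, 3 of WT and 3 of Zip13-KO iWAT, each hybridized with the Cyanine 3-labelled RNA of a single sample, so that a spot's intensity reflects how much of its transcript was present.

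The Zip13-KO mice lack ZIP13 (gene Slc39a13), a zinc transporter, in all tissues. A Neo cassette stands in place of exons 6 to 8 of the gene, the targeting was done in R1 embryonic stem cells, and the line carries no tissue-specific Cre. Both genotypes were on the C57BL/6J background after at least 7 generations of backcrossing, the WT mice were littermates, and the array mice were 10 weeks old. All mice received powdered feed because the knockout affects the teeth. The labels name both a standard and a high-fat feed and do not say which of them the array mice ate.

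Schlafen proteins take their name from the German word for sleeping, because forced expression of the first members slowed the growth of thymocytes. The genes lie in a cluster, many of them are induced by type I interferon, which acts through the interferon-stimulated response element (ISRE), and they are expressed mainly in leukocytes such as macrophages, monocytes and T cells. The short proteins (Slfn1 and Slfn2) and the intermediate ones (Slfn3 and Slfn4) are cytoplasmic, whereas the long ones (Slfn5, Slfn8, Slfn9) carry an additional helicase-like region. Which cells of the iWAT hold Schlafen RNA was not measured here.

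All 7 Schlafen genes had lower values in the Zip13-KO iWAT than in the WT iWAT. Slfn4 stood apart, with a signal well above background on each WT array and on no Zip13-KO array. In the background-corrected signal it was at least 22.8-fold lower, and its fitted difference was smaller without that correction. Slfn1, Slfn2, Slfn3, Slfn5 and Slfn8 lay between 32.8% and 51.1% of the WT level, and Slfn9 lay at 85.3%. On each of the 9 probes every Zip13-KO array was below every WT array.

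The sequences upstream of the members that hold an ISRE core are shown first, because the family is known as a set of interferon-induced genes. RefSeq promoter windows of 300 bases (250 before and 50 after the transcription start, build GRCm38.p6) were searched on both strands for the ISRE core GAAANNGAA, which reads TTCNNTTTC on the other strand. A match was present in the windows of Slfn5, Slfn9 and Slfn8, and also in that of Slfn14. The windows of Slfn1, Slfn2, Slfn3 and Slfn4 held none. For comparison, 2812 of 32851 windows (8.56%) and 2638 of 27025 genes (9.76%) held a match, against 29 of the 44 interferon-stimulated genes with a window (65.9%). In the lines that follow, each stretch of the gene's own strand is in lower case with the ISRE core in capitals.
Slfn5: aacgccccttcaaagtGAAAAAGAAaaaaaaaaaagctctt
Slfn9: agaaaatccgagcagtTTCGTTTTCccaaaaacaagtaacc
Slfn8: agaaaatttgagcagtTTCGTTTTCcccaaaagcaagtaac
The Slfn5 stretch is chr11:82951931-82951971 on the plus strand, where the core begins at -155 from the start and a second core, TTCTCTTTC, begins at -132. The Slfn9 stretch is chr11:82991850-82991890 on the minus strand, with the core at -44. The Slfn8 stretch is chr11:83020833-83020873 on the minus strand, with the core at -47 from the most upstream of its RefSeq start sites. Over the 250 bases upstream, Slfn8 and Slfn9 were identical at 210 of 262 aligned positions (80.2%), and the next closest pair of family members, Slfn3 and Slfn8, at 53.4%. The STAT site TTCNNNGAA, its own reverse complement, occurred in none of the Schlafen windows, in 8.3% of all windows and in 31.8% of the interferon-stimulated genes with a window. The members with and without an ISRE core in the window were both lower: Slfn9, with a core, changed least, and Slfn4, without one, changed most. A match is a match of letters only, and binding was not measured.

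The targeted gene was checked first. The Slc39a13 probe gave normalized log2 intensities of 11.29, 10.87 and 10.72 for WT and 6.76, 6.66 and 6.47 for Zip13-KO, a log2 fold change of -4.33 with a standard error of 0.17. The genotypes did not overlap, and all 6 arrays matched their labels, although which part of the transcript the probe binds is not given in the sources used here. The share of spots well above background was 62.5 to 63.2% on the WT arrays and 58.8 to 60.4% on the Zip13-KO arrays. The lowest signal well above background was 3.22 to 3.31 on the WT arrays and 3.56 to 3.8 on the Zip13-KO arrays in normalized log2 intensity. A single slide and a single scan held all arrays. Its column 1 carried the WT arrays together with Zip13-KO replicate 1, and its column 2 carried the other two Zip13-KO arrays. All 12 adipocyte markers were well above background on every array, with Lep lowest on WT replicate 1 (7.07 against 9.66 to 10.21 on the other arrays), and such markers do not tell fat depots apart. Pearson correlations were taken over the 15306 genes tested with limma. They were 0.9856 to 0.9933 among the WT arrays, 0.9942 to 0.9954 among the Zip13-KO arrays and 0.9601 to 0.9838 between genotypes.

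Of the 15306 genes tested with limma, 1282 (8.38%) were called lower in the Zip13-KO iWAT and 1576 (10.3%) higher, where a call needs both an adjusted p (Benjamini-Hochberg) under 0.05 and a log2 fold change past 0.58 in size (1.5-fold). Tested genes had a probe well above background throughout the 3 WT or the 3 Zip13-KO arrays. Beside that background, 6 of the 7 Schlafen genes were called lower and 0 were called higher, and because the members were chosen by this contrast nothing is read from the count. In limma at an unadjusted p under 0.05, 0 members were higher. In 3958 genes (25.9%) every Zip13-KO array was below every WT array, and this held for 7 of 7 members. All 9 Schlafen probes passed the filter, 8 of them on all 6 arrays, and the Slfn4 probe passed through the WT arrays alone. The median log2 fold change was -1.22 over the members and -5e-04 over all genes tested.

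**Figure D1:**
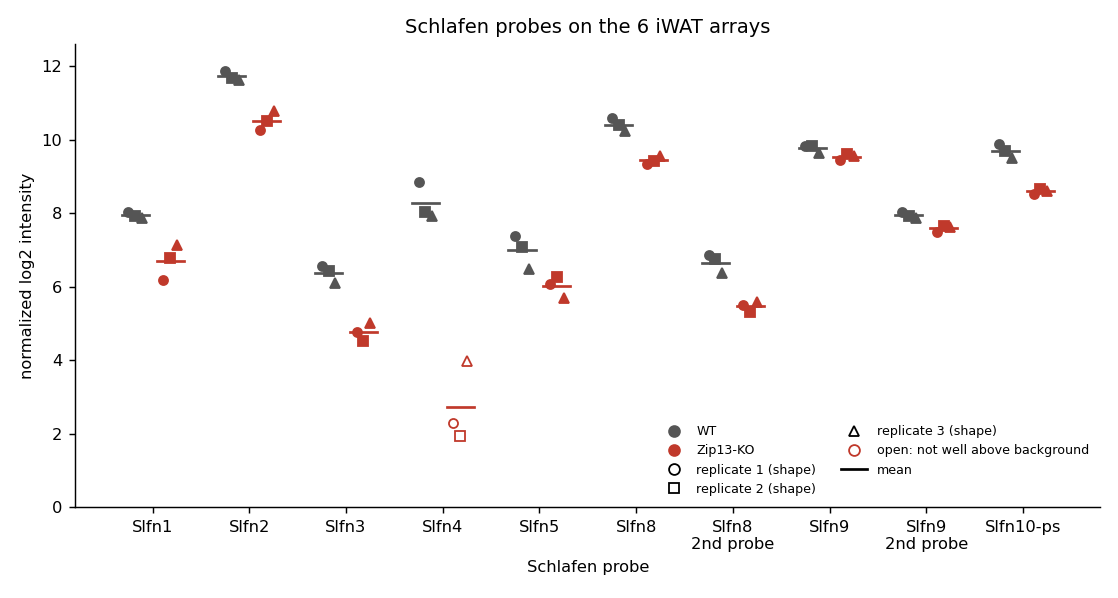
Normalized log2 intensity (vertical axis) of the 9 Schlafen probes and of the Slfn10-ps probe on each of the 6 arrays, with WT in grey, Zip13-KO in red, replicates by shape, means as lines and open symbols for spots not well above background. On every probe the 3 red points lie below the 3 grey ones, by the widest margin for Slfn4 (3.96 between the lowest WT and the highest Zip13-KO array) and the narrowest for Slfn9 (0.03). Heights of different probes are not comparable.

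Among the short members, Slfn2 is needed for the quiescence of T cells and monocytes and protects transfer RNA from cleavage under stress. Its probe gave normalized log2 intensities of 11.87, 11.67 and 11.63 in WT replicates 1, 2 and 3 and 10.25, 10.5 and 10.77 in Zip13-KO replicates 1, 2 and 3. The genotypes did not overlap, and the lowest WT array was 0.86 above the highest Zip13-KO array. Slfn2 thus had a log2 fold change of -1.22 with a standard error of 0.15, or 43% of the WT level. Means ± SD were 11.72 ± 0.13 for WT and 10.51 ± 0.26 for Zip13-KO (n = 3 each).

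Slfn1, the founding member whose forced expression arrests thymocyte growth, read 8.02, 7.93 and 7.88 (WT) and 6.18, 6.77 and 7.14 (Zip13-KO) in normalized log2 intensity. The 3 WT values lay close together (SD 0.07), while the Zip13-KO values spread widely (SD 0.48), with replicate 1 lowest and replicate 3 highest. Even the highest Zip13-KO array was 0.75 below the lowest WT array. For Slfn1 the log2 fold change was -1.25 with a standard error of 0.24, which is 42.1% of the WT level.

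Of the intermediate members, Slfn3, studied mainly for its part in the differentiation of intestinal epithelium, had a dim probe with normalized log2 intensities of 6.57, 6.42 and 6.1 for WT and 4.76, 4.52 and 5 for Zip13-KO. The groups were separated by 1.1, and both had an SD of 0.24. In the fit Slfn3 had a log2 fold change of -1.61 with a standard error of 0.17 (32.8% of the WT level). Where background was not subtracted or was modelled by normexp, the log2 fold change of Slfn3 was smaller, -0.88 and -0.69, with the same direction and call.

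Slfn4 is a gene of myeloid cells, induced in macrophages by Toll-like receptor ligands and interferon. Its processed intensity was 479, 292 and 268 on the WT arrays and 4.43, 3.57 and 14.7 on the Zip13-KO arrays. Each WT spot was well above background and no Zip13-KO spot was, with Zip13-KO replicate 3 the highest of its genotype. In normalized log2 intensity the WT arrays read 8.86, 8.04 and 7.93 (mean 8.28 ± 0.51 SD, n = 3). The Zip13-KO arrays read 2.28, 1.94 and 3.98 (mean 2.73 ± 1.09 SD, n = 3), so that the lowest WT array was 3.96 above the highest Zip13-KO array. The fitted log2 fold change of -5.55 (standard error 0.56) depends on values under the background call. The fold is therefore given as at least 22.8-fold lower, taking on each Zip13-KO array the higher of the probe's own signal and the lowest signal well above background on that array. Without background subtraction the fitted log2 fold change was -2.79, and with normexp it was -2.28.

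Among the long members, Slfn5 is an interferon-induced nuclear protein. Its probe gave normalized log2 intensities of 7.39, 7.08 and 6.49 on the WT arrays and 6.06, 6.27 and 5.7 on the Zip13-KO arrays. The genotypes were separated by only 0.22, between WT replicate 3 and Zip13-KO replicate 2, and both spread more than most members (SD 0.46 and 0.29). For Slfn5 the log2 fold change was -0.98 with a standard error of 0.26 (50.8% of the WT level). The call of Slfn5 was lost when any 1 array other than WT replicate 3 was left out, with log2 fold changes of -0.77 without WT replicate 1, -0.93 without WT replicate 2, and, for the Zip13-KO arrays, -1.01 without replicate 1, -1.11 without replicate 2 and -0.82 without replicate 3. It was lost as well with normexp, at -0.57.

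Slfn8, a member expressed in lymphoid and myeloid cells, was measured by 2 probes. The probe that stands for the gene gave normalized log2 intensities of 10.59, 10.4 and 10.24 on the WT arrays and 9.34, 9.43 and 9.56 on the Zip13-KO arrays. The groups were separated by 0.68, with SDs of 0.18 and 0.11. The log2 fold change was -0.97 with a standard error of 0.12 (51.1% of the WT level). The second probe, to another transcript of the gene, read 6.86, 6.74 and 6.37 against 5.5, 5.31 and 5.58 and gave a log2 fold change of -1.19 with a standard error of 0.15 in the fit of all probes. Both Slfn8 probes thus lay lower in every Zip13-KO array.

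Slfn9, the closest relative of Slfn8 in the windows upstream, changed little. Its brighter probe gave normalized log2 intensities of 9.83, 9.82 and 9.63 on the WT arrays and 9.45, 9.6 and 9.55 on the Zip13-KO arrays. The lowest WT array was only 0.03 above the highest Zip13-KO array, so the groups barely separated. The log2 fold change was -0.23 with a standard error of 0.09 (85.3% of the WT level), under the fold threshold. The second probe of Slfn9 read 8.03, 7.92 and 7.88 against 7.48, 7.65 and 7.62, separated by 0.22, and gave -0.35 with a standard error of 0.07 in the fit of all probes (78.2% of the WT level). Slfn9 was not called under any setting tried. Probe sequences were not used here, so binding of 1 probe to transcripts of several Schlafen genes was not tested.

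**Figure D2:**
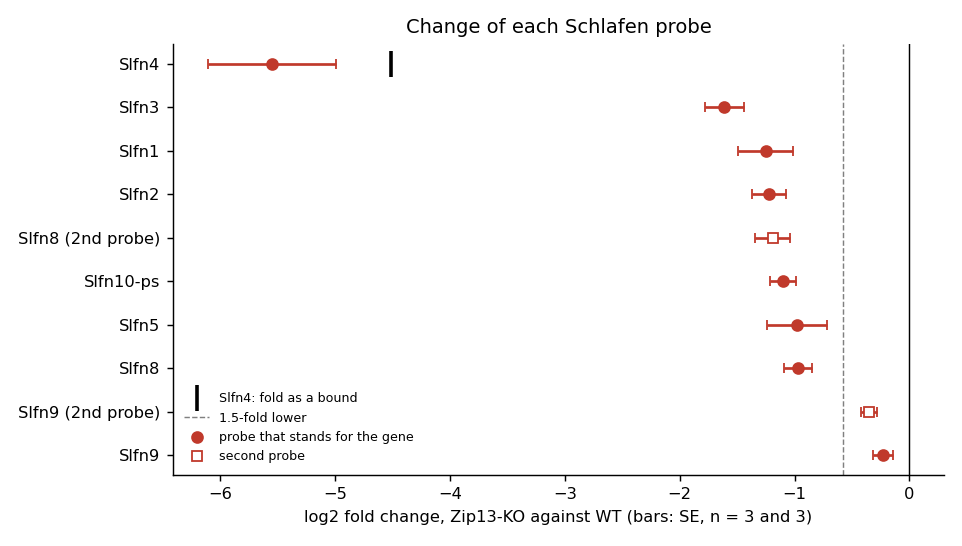
Log2 fold change of each Schlafen probe, Zip13-KO against WT (horizontal axis), with bars for the standard error (n = 3 arrays per genotype), filled circles for the probe that stands for a gene, open squares for second probes and a black mark for the Slfn4 bound at -4.51. The dashed line is a 1.5-fold fall. All points are left of 0, and only the 2 Slfn9 probes are right of the dashed line.

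In the order of these log2 fold changes, Slfn4 came first and, taken at its bound in the background-corrected signal, was at least 2.9 beyond Slfn3. Without background subtraction Slfn4 had -2.79 and Slfn3 -0.88, and with normexp -2.28 and -0.69. Slfn4 thus still came first there, by a smaller step. Slfn3 was 0.36 beyond Slfn1 (combined standard error 0.29 if the errors are independent). That step did not hold without background subtraction, where Slfn3 had -0.88 and Slfn1 -0.97, or with normexp, where they had -0.69 and -0.87. Slfn1, Slfn2, Slfn5 and Slfn8 followed each other by 0.03, 0.24 and 0.01, each step smaller than its combined standard error of 0.28 to 0.3, so no order among these 4 genes was resolved. Slfn9 was 0.74 short of Slfn8 (combined standard error 0.15).

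The members also varied together within a genotype in part. WT replicate 1 was the highest WT array and WT replicate 3 the lowest on all 9 Schlafen probes. Over all genes tested, WT replicate 1 was the highest WT array in 35.8% and WT replicate 3 the lowest in 30.9%. In the Zip13-KO arrays, replicate 3 was highest on 6 of the 9 probes and replicate 2 on the other 3, which are those of Slfn5 and Slfn9. Leaving out the Slfn4 spots of the Zip13-KO arrays, which were not well above background, the members furthest from their genotype mean were Slfn4 in WT replicate 1, at 0.58 on the log2 scale, and Slfn1 in Zip13-KO replicate 1, at -0.52. WT replicate 1 also had the highest summed macrophage markers and the lowest summed adipocyte markers of the WT arrays, and the part of this in the Schlafen values was not tested. In column 1 of the slide, where both genotypes were present, Zip13-KO replicate 1 was below every WT array on all 9 probes, from 0.18 for the brighter Slfn9 probe to at least 4.37 for Slfn4 below the lowest of them on the log2 scale. Its log2 difference from the WT mean was -1.76 for Slfn1, -1.47 for Slfn2, -1.61 for Slfn3, -0.93 for Slfn5, -1.07 for Slfn8 and -0.31 for Slfn9. This within-column comparison is also all that a block for the column would leave, and the part of the column in the Zip13-KO values was not tested.

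The remaining Schlafen genes on the array were Slfn10-ps, Slfn14, Slfnl1 and the antisense transcript Slfn5os. Slfn10-ps, a pseudogene related to the long members, read 9.88, 9.7 and 9.51 (WT) and 8.51, 8.66 and 8.61 (Zip13-KO) in normalized log2 intensity. The groups did not overlap, and the log2 fold change was -1.1 with a standard error of 0.11 (46.7% of the WT level, called lower). Slfn14, a ribosome-bound endoribonuclease of the erythroid and platelet lineages, and Slfnl1, a Schlafen-like gene on another chromosome, were not well above background on any array. Slfn5os was well above background on 2 arrays of each genotype and was not tested. Its normalized log2 intensities, close to background, were 3.75, 3.75 and 3.57 for WT and 4.17, 4.46 and 3.98 for Zip13-KO, so that here every Zip13-KO array lay above every WT array.

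In the RefSeq gene table the cluster lies on chromosome 11 in the order Slfn5, Slfn9, Slfn8, Slfn10-ps, Slfn2, Slfn1, Slfn4, Slfn3 and Slfn14. The gene that changed least, Slfn9, lies between Slfn5 and Slfn8, and the gene that changed most, Slfn4, lies between Slfn1 and Slfn3. Of 9 protein-coding neighbours described here, 5 before and 4 after the cluster, 6 were tested, and in limma 0 were called lower and 2 higher (at an unadjusted p under 0.05, limma and the methods' t-test each had 0 lower and 3 higher). Unc45b, a myosin chaperone directly before Slfn5, reached 0.99 on the log2 scale (SE 0.13, limma adjusted p = 0.00623). 1700020L24Rik, the farthest on the other side, had 0.67 (standard error 0.12, limma adjusted p = 0.011). Rffl, Rad51d, Nle1 and Ap2b1 lay between -0.23 and 0.37 and were not called. The median of these 6 neighbours was 0.13, against -1.22 for the members. The members were chosen by this contrast and the neighbours by position, so nothing is read from the difference between these medians.

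**Figure D3:**
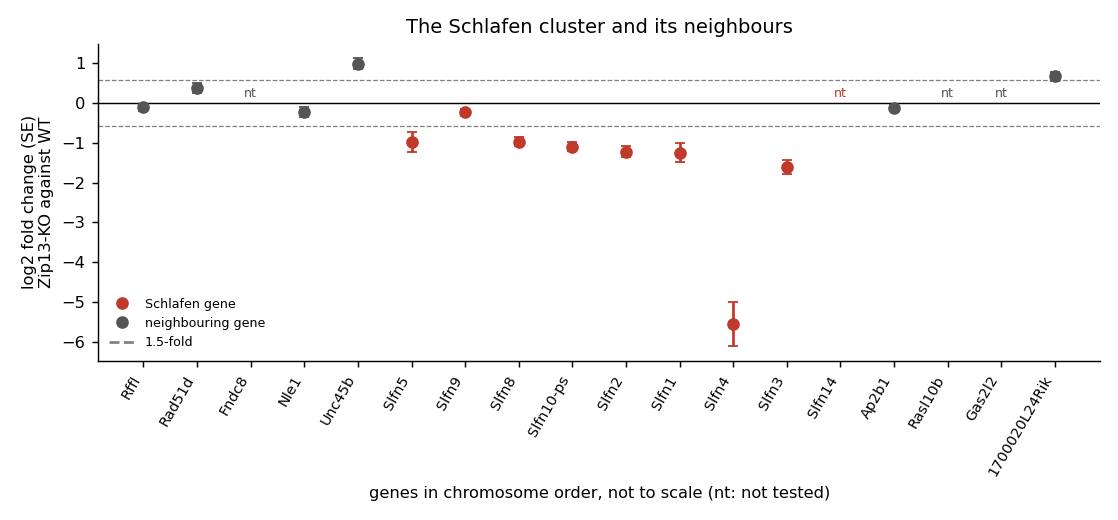
Log2 fold change with its standard error (vertical axis), Zip13-KO against WT, of the Schlafen genes (red) and of 9 protein-coding neighbours (grey) in chromosome order, not to scale, with dashed lines at a 1.5-fold change. The 8 tested Schlafen genes lie below 0, from -5.55 (fitted) to -0.23, and the neighbours lie between -0.23 and 0.99, with 4 genes not tested.

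The genes that respond to interferon, as the Schlafen genes do, were read from the same fit over lists written with earlier results of these data known. Of 55 interferon-stimulated genes tested, 30 were called lower and 0 higher (at an unadjusted p under 0.05, 39 were lower and 0 higher in limma, and 34 and 0 in the methods' t-test). Their median log2 fold change was -0.77. The largest fall was in Oas3, which makes the activator of RNase L, at -2.2 (standard error 0.32, limma adjusted p = 0.00766). The ubiquitin-like modifier Isg15 had -1.56 (standard error 0.26, limma adjusted p = 0.00948). Cxcl9, a chemokine induced by interferon gamma, was at the other end with 0.40 (adjusted p = 0.541). The brightest of the list were Ifi27l2a, not called at 0.12, Lgals3bp, under the fold threshold at -0.51, and Ifitm3, which blocks virus entry, called lower at -1.32.

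Groups within this list, formed after the values were seen, differed in their counts. All 5 OAS genes tested (Oas1a, Oas2, Oas3, Oasl1 and Oasl2) and all 5 IFIT genes were called lower, with median log2 fold changes of -1.91 and -0.97. Of 12 guanylate-binding proteins and immunity-related GTPases, which interferon gamma induces strongly, only Irgm1 was called lower, and the median was -0.38. The arrays on which they were highest were also not the same. WT replicate 2 was the highest WT array for 12 of these 12 GTPases, while WT replicate 1 was the highest for 5 of 5 OAS genes, as it was for the 9 Schlafen probes. The IFIT genes were mixed, with WT replicate 1 highest for 2 and WT replicate 2 for 3. Over all 55 interferon-stimulated genes, WT replicate 2 was the highest for 35, WT replicate 1 for 19 and WT replicate 3 for 1. Over all genes tested, WT replicate 2 was the highest WT array in 27.8%, WT replicate 1 in 35.8% and WT replicate 3 in 36.4%.

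Upstream of these targets, 9 of the 21 interferon ligands listed were tested. In limma 0 of the 9 were called in either direction (0 also at an unadjusted p under 0.05, and 0 by the methods' t-test). These ligands ranged from -0.52 for Ifna2 to 0.51 for Ifna12, with a median of 0.03. Ifna2 was well above background on the WT arrays only. Apart from Ifng and Ifnl3 the probes were dim, with Ifna14 the highest in WT at a mean of 5.43 in normalized log2 intensity. Ifnb1 was among the ligands not tested. Of 20 receptors and signal transducers, 8 were called lower, namely Ifngr2, Irf5, Irf7, Irf8, Irf9, Jak1, Socs3 and Stat2, and 0 were called higher (1 at an unadjusted p under 0.05 in limma and in the methods' t-test). Irf7, the factor that amplifies type I interferon production, had the largest fall, at -1.62 (standard error 0.25, limma adjusted p = 0.00816). Stat2 and Irf9, parts of the complex that binds the ISRE, had -0.84 (adjusted p = 0.0162) and -0.59, and Ifnar2 was highest with 0.27.

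**Figure D4:**
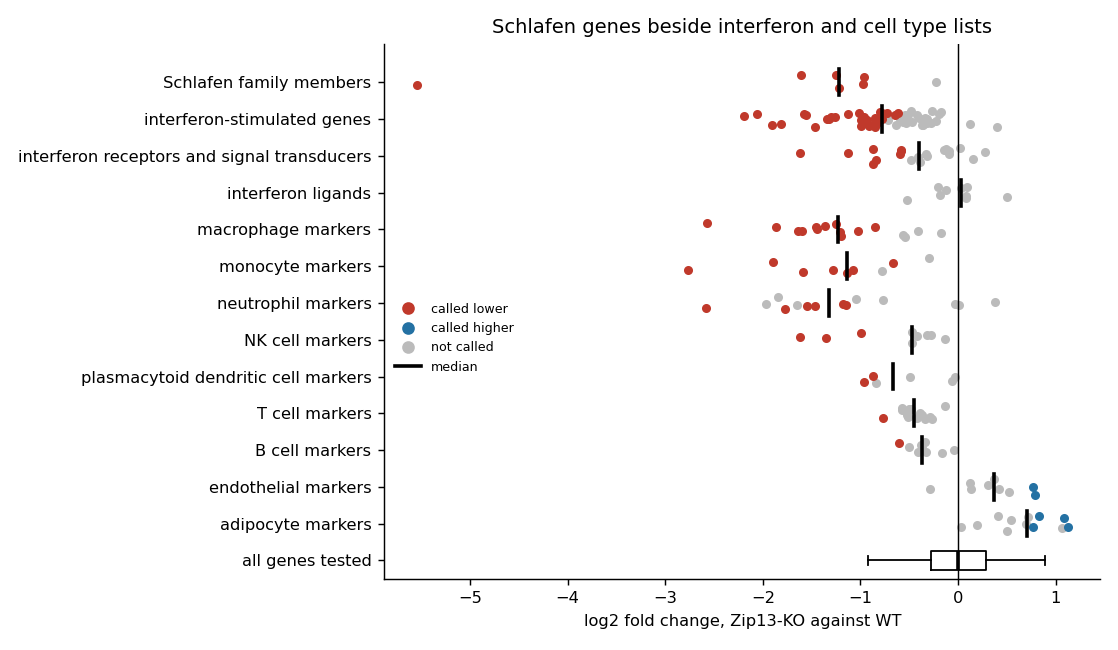
Log2 fold change of each tested gene, Zip13-KO against WT (horizontal axis), for the Schlafen members, the interferon lists and the cell type marker lists, with genes called lower in red, called higher in blue, not called in grey and medians as black bars. The box for all genes tested spans the quartiles, with whiskers at percentiles 5 and 95. The Schlafen median (-1.22) lies beside those of the macrophage (-1.23), monocyte (-1.13) and neutrophil (-1.32) markers, below that of the interferon-stimulated genes (-0.77), and the adipocyte markers lie to the right of 0.

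The cell types that express Schlafen genes were followed by their markers, and a marker's fall in whole tissue cannot tell fewer cells of a type apart from less RNA per cell, which applies to the Schlafen genes as well. Of 16 macrophage markers tested, 12 were called lower, 16 were below 0 and the median was -1.23. Fcgr1, an immunoglobulin receptor, had the largest fall at -2.57 (standard error 0.16, limma adjusted p = 0.00292), and Adgre1 (F4/80) and Cd68 had -1.64 and -1.87, whereas Timd4 had -0.18. Csf1r, Marco and C1qc were the brightest, with -1.03, -0.41 and -1.37. The summed normalized intensity of the macrophage list was 143000 to 205000 on the WT arrays and 65500 to 89100 on the Zip13-KO arrays. No macrophage marker was at 0, and each was well above background on all 6 arrays. The summed intensity of the 7 Schlafen members was 5800 to 7200 on the WT arrays and 2740 to 3490 on the Zip13-KO arrays. The part of the macrophage markers in the Schlafen difference was not tested.

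Monocyte markers were called lower in 7 of 9 tested genes (median -1.13), led by Chil3 with -2.77 (standard error 0.19, limma adjusted p = 0.00326) and Plac8 with -1.9. Hp, the brightest, had -0.3 and was not called, with mean normalized log2 intensities of 17.04 in WT and 16.74 in Zip13-KO. The summed level of the monocyte list was 157000 to 204000 against 116000 to 146000, and most of it was Hp. Neutrophil markers were called lower in 6 of 14 (Camp, Cxcr2, Mpo, Padi4, S100a8 and S100a9), with a median of -1.32, but Csf3r, the brightest, had 0.01. Their summed level was 80700 to 82800 against 68800 to 72000. Fewer lymphocyte markers were called. For T and B cell markers the share called lower was near the 8.38% of all genes tested, so nothing is read from those counts. Of 14 T cell markers, 1 (Thy1, -0.77) was called lower and 14 were below 0 (median -0.45, sums 55900 to 69400 against 39300 to 46600). Of 9 B cell markers, 1 (Pax5, -0.61) was called lower (median -0.37, sums 43300 to 50800 against 33700 to 37700). Of 9 NK cell markers, Eomes, Gzma and Gzmb were called lower (median -0.47, sums 5750 to 7150 against 3460 to 3800). Of 6 plasmacytoid dendritic cell markers, Bst2 and Irf8, both also interferon-induced, were called lower, while Siglech had -0.03 (median -0.67, sums 61500 to 66100 against 49900 to 50000). The part of these cells in the Schlafen difference was not tested.

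Adipocyte, endothelial and skeletal muscle markers lay mostly above 0, and mammary epithelium markers lay on both sides of it. Of 12 adipocyte markers, 4 (Lipe, Plin1, Pparg and Slc2a4) were called higher and 0 lower (at an unadjusted p under 0.05, 9 were higher and 0 lower in limma, and 6 and 0 in the methods' t-test), with a median of 0.7 and sums of 572000 to 742000 against 842000 to 885000. Pparg, the regulator of adipocyte differentiation, had the largest rise at 1.13 (standard error 0.22, limma adjusted p = 0.0141). Of 9 endothelial markers, Cdh5 and Cldn5 were called higher (median 0.37, sums 14400 to 15500 against 18200 to 19900). Of 11 skeletal muscle markers 0 were called in limma (1 lower and 0 higher at an unadjusted p under 0.05, and 0 by the methods' t-test), with sums of 1940 to 4420 against 2640 to 9810 and a median of 0.87. Of 7 mammary epithelium markers 0 were called (1 higher at an unadjusted p under 0.05 in limma and 0 by the methods' t-test), with a median of 0.18 and sums of 240 to 779 against 181 to 766.

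Genes whose pattern over the 6 arrays was most like that of a member were named for Slfn4 and for Slfn2, the brightest member, by Pearson's r of the normalized log2 values, as a description over arrays that share the genotype difference. For Slfn4 these were Tgfbi (0.9989), Dazap2 (0.9988), Rps12 (0.9977), Mpeg1 (0.9974) and Rhog (0.9974), with log2 fold changes of -0.85, -0.29, -0.29, -1.26 and -0.61. Tgfbi, Mpeg1 (a pore-forming protein of macrophages) and Rhog were called lower and the other 2 were not. The Slfn4 values on the Zip13-KO arrays were not well above background, so the order of its r values rests partly on such values. For Slfn2 they were Trir (0.9989), Hnrnpa1 (0.9973), Eif4enif1 (0.9972), Ppp1r12c (0.9963) and Ifi203 (0.9962), with log2 fold changes of -0.23, -0.45, -0.33, -0.4 and -0.62. Of these only Ifi203, an interferon-induced gene, was called lower. With 6 arrays in 2 groups many genes reach such values: r was over 0.95 for 816 of 15304 genes with Slfn4 and for 766 with Slfn2.

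The size of the differences depended on which arrays were included and, most for the dim probes, on how background was handled. All 7 members were below 0 under every alternative that gave a value. The log2 fold change of Slfn2 ranged from -1.35 to -1.09 and that of Slfn8 from -1.08 to -0.88. That of Slfn1 ranged from -1.47 to -0.87, of Slfn3 from -1.74 to -0.69 and of Slfn5 from -1.23 to -0.57. Both ends for Slfn2, and the larger falls of Slfn1, Slfn3 and Slfn5, came with 1 array left out. The values of Slfn1, Slfn3 and Slfn5 nearest 0 came with normexp.

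**Figure D5:**
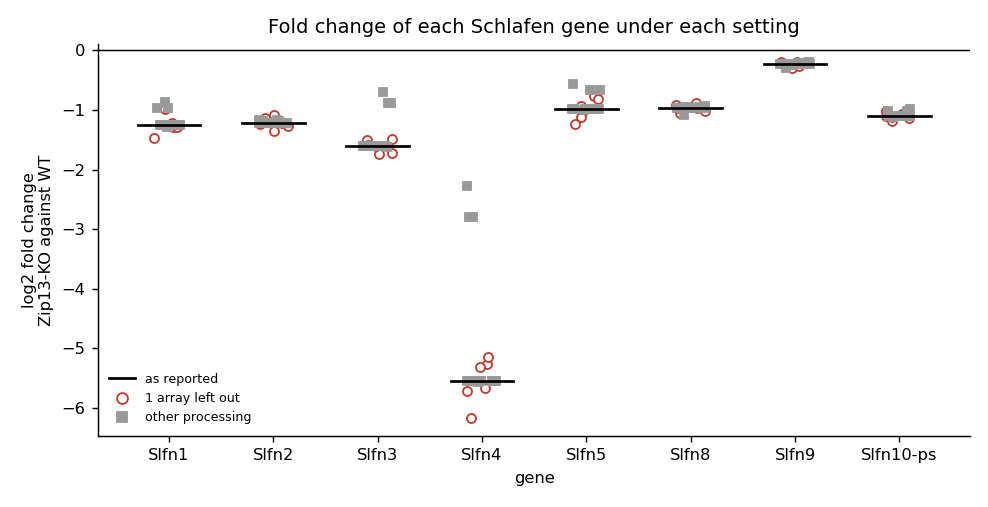
Log2 fold change, Zip13-KO against WT (vertical axis), of each Schlafen gene as reported (black line), with 1 array left out (open circles) and under the other processing settings (grey squares). All points lie below 0. The values of Slfn3 and Slfn4 move toward 0 without background subtraction (-0.88 and -2.79), while those of Slfn2, Slfn8, Slfn9 and Slfn10-ps stay close to the line.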

How the data were processed

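The 6 iWAT RNA samples (3 WT, 3 Zip13-KO) were run on 1-colour Agilent SurePrint mouse arrays. The deposited scanner files (Feature Extraction 11.5.1.1 per the submitters' processing notes) give, per the file headers, a processed signal in intensity units for each spot, corrected for background but not normalized between arrays, beside the raw median signals of the spot and its local background. The table of log2 values that the authors deposited, quantile normalized in their methods, ranked spots exactly as the median signal did (rank correlation 1 on each array, 0.9745 to 0.987 with the processed signal), so it is not background subtracted. Its median was 6.238 to 6.241 per array.

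Here the log2 processed signal was quantile normalized after leaving out control spots and spots marked as outliers, and spots of a probe were averaged. Of 55681 probes, 33046 were well above background on all 3 arrays of a genotype, and 20318 of these had a symbol through RefSeq accessions. The brightest kept probe stood for a gene. Genotypes were compared with limma 3.58.1 (lmFit, eBayes, Benjamini-Hochberg) in R 4.3.3 over 15306 genes. The labels do not say more of the replicates than that they are separate samples, so p-values measure only the spread between these samples. An exact permutation of 3 against 3 arrays cannot go below 0.1 and was not used. Spot signal over background sets the precision, no spot was saturated, and the number of arrays limits it. The steps were tested on simulated data.

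The members, lists and rules were chosen with earlier results of these data known. The genes named are all members, the other Schlafen genes, Slc39a13, the ends, called genes and 3 brightest genes of each list, the neighbours among 5 on each side (1 is not reported here) and the 5 genes most like Slfn4 and Slfn2. The lists are interferon-stimulated genes, interferon ligands, interferon receptors and signal transducers, and markers of macrophages, monocytes, neutrophils, T, B and NK cells, plasmacytoid dendritic cells, adipocytes, endothelium, skeletal muscle and mammary epithelium. Motifs were searched and promoters aligned with Python 3.11.15 and Biopython 1.88. A comparison of Schlafen protein sequences was not made here.

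Alternatives were 75th percentile scaling, normexp background correction (offset 50, on the median signal), no background correction, the deposited table, no filter or a filter on all 6 arrays, other rules for a gene's probes, the methods' t-test (adjusted or not), eBayes with trend and robust options, replicate number as a block, a stricter adjusted p, outlier spots kept, and leaving out each array. No slide or scan block was run, since there was 1 of each.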

Additional observations from a re-analysis of the deposited data

How the results depend on the processing

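No log2 fold change reversed its direction: 168 kept their direction and side of the threshold and 11 lost their call. Of the counts, 88 stayed within 1.5 times the reported one and 12 moved by more. The 6 calls among the Schlafen genes numbered 4 to 6 under all alternatives, and 5 to 6 when 1 array was left out. The call of Slfn5 was lost in 9 alternatives and that of Slfn1 in 2 (the adjusted t-test of the methods and an adjusted p under 0.01). Slfn4 could not be tested with the filter on all 6 arrays. Under the methods' t-test with adjustment, 721 genes were lower and 1007 higher, and at an adjusted p under 0.01, 505 and 707, with 15 interferon-stimulated genes and 5 macrophage markers lower. With 1 array left out, 782 to 1455 genes were lower and 961 to 1672 higher. Counts were 782 lower and 961 higher without Zip13-KO replicate 1, and 791 lower and 1027 higher without replicate 2 of that genotype. Leaving out 1 array gave 17 to 35 interferon-stimulated genes lower, 18 without Zip13-KO replicate 1 and 17 without the second of these arrays, and 9 to 12 macrophage markers. The cause was not tested. Slc39a13 stayed between -4.45 and -3.69 on the log2 scale.

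Same-numbered WT and Zip13-KO arrays did not deviate together (r of -0.021, 0.038 and -0.08 over genes), so the numbers were not taken to pair mice. With the replicate block, 6 Schlafen genes, 1051 of all genes, 21 interferon-stimulated genes and 11 macrophage markers were lower, 1278 genes were higher, and Slc39a13 was at -4.33. Dim probes carry the limits of these arrays: without background subtraction the differences of Slfn3, Slfn4 and Slfn5 shrink.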
